A study of Homo sapiens with 8 samples.

Results

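RNA bound by IGF2BP2 was measured in A172, an established human glioma cell line, by enhanced crosslinking and immunoprecipitation (eCLIP), and the peaks of both IGF2BP2 immunoprecipitation (IP) libraries are described here across genes. They were taken as all peaks of the 2 IGF2BP2 IP peak lists, which are scored against input RNA, after repeated lines were dropped. This left 362700 peaks in replicate 1 and 341305 in replicate 2, or 704005 of the 1843422 peaks in the series. The series holds 8 samples in 4 groups of 2: IP and input of IGF2BP2, and IP and input of PTBP1, a splicing regulator. All cells had taken up 500 µM 4-thiouridine for 3 h, were crosslinked with 2 exposures to 400 mJ/cm2 of 365 nm light and were treated with RNase I. Each input was 2% of its lysate, taken before the antibody was added, and no knockout or control antibody is named in the labels. A single cell line was used, and no source says that the replicates were separate cultures, so a p-value here covers only the spread between these libraries.

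IGF2BP2, also called IMP2, is a cytoplasmic RNA-binding protein with RRM and KH domains. Proteins of its family are known to bind mature mRNAs, often in the 3′ untranslated region (UTR), and to affect their stability, transport and translation. They are known to favour CA-rich elements such as CAU followed by A, C or U, and they have been described as readers of N6-methyladenosine, a mark laid down in a GGAC-like context.

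Short regions that were enriched in both replicates and lay in promoter windows are printed first, because these windows were the sequence at hand. An enriched region joins overlapping peaks on the same strand that passed the bar explained below in both libraries. Of 9494 such regions, 34 lay inside a RefSeq promoter window (GRCh38.p14, from 250 nt before to 50 nt after a gene start) and 14 of these were 15 to 30 nt long. Of the latter, 5 are shown, chosen after their values were seen, and they include the 2 of the 14 that hold a motif searched for below. Sequences are 5′ to 3′ on the peak's strand, and capitals mark a GGAC or a CAT followed by A, C or T.
SNX33: ttgaagagggggagactGGACagca
MAN1B1: tcggtggtgttaCATTcacgctgttgc
RPS18: cttccacaggaggcctacacgccgcc
TGFBR1: tggcgcggggccgggggcgcaggtggcggc
FARP1: agagaggcgcagatccccggcgg
The SNX33 region (chr15:75648926-75648950, plus strand, 5′ UTR of a sorting nexin gene) had 10 IP reads to 1 input read in both replicates. The MAN1B1 region (chr9:137101834-137101860, plus strand, annotated as intron of an endoplasmic reticulum mannosidase gene and inside the promoter window of another gene, LOC124902313) had 7 and 6 IP reads to 1 and 1 input reads. The RPS18 region (chr6:33272079-33272104, plus strand, 5′ UTR of a ribosomal protein gene) had 22 and 13 IP reads to 2 and 4 input reads. The TGFBR1 region (chr9:99105387-99105416, plus strand, intron of a TGF-β receptor gene) had 22 and 10 IP reads to 2 and 2 input reads, and the FARP1 region (chr13:98142880-98142902, plus strand, intron) had 8 and 6 to 1 and 1. All 5 rest on few input reads. Over 421392 stretches of 25 nt cut from the same promoter windows, 8.51% held GGAC and 15.4% held CAT followed by A, C or T on the gene's strand. Of the 14 regions, 1 held GGAC and 1 held the CAT motif, so neither motif stood out in this small set. The 3 regions without capitals hold neither motif within these letters. Sequences of 3′ UTR regions were not analysed here.

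The measure of each peak is the deposited log2 of IP over input reads, from which the commonest value of its chromosome in that library was subtracted. On this centred log2 scale, 0 stands for 3 IP reads to 1 input read, the commonest pair in both lists. A peak was called enriched when its log2, placed on a common scale for all chromosomes, and its −log10 p were both at least 3. The log2 part of that bar lay at a centred log2 of about -0.32 in replicate 1 and -0.49 in replicate 2. That is 2.4 and 2.14 IP reads per input read. A peak with few reads needed a higher ratio to reach the −log10 p. Peaks were shallow, with a median of 4 IP reads in both libraries, and 32.3% and 33.0% of the peaks with recovered reads had exactly 3. The recovered IP reads summed to 2829405 and 2661378. Enriched peaks numbered 33318 (9.19%) in replicate 1 and 31905 (9.35%) in replicate 2. A peak shows up only where the RNA is present, so a gene with few peaks may be little expressed or little bound, and these cannot be told apart.

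Both replicates gave much the same picture. Over 25761 joined regions with at least 10 IP reads in both libraries, the centred log2 values had a Pearson r of 0.845 and a Spearman rank correlation of 0.826, and their difference had an SD of 0.79. These regions share a cell line and a read-depth filter, so r is a description. Of peaks in genes, 78.8% had a gene whose strand is known from RefSeq, and 92.1% of these lay on that strand in both libraries. The others lay on the opposite strand, and 10.7% and 10.8% of all peaks overlapped a peak of the same list on the other strand (called mirrored here). Of 10 genes fixed as traits of the A172 line, 7 had a peak, with 326 and 306 peaks in all, most of them in EGFR (207 and 202) and CD44 (85 and 69), while the stem cell factor SOX2 and the glial genes CHI3L1 and S100B had none. Of 12 genes fixed as markers of other cell types, 5 had a peak, with 46 and 30 in all, 28 and 19 of them in the synaptic gene SYT1, while 7 had none, ALB, APOA1, CD3E, HBB, INS and MYH6 among them. The leukocyte gene PTPRC, with 9 and 5 peaks, held 3 regions enriched in both replicates, all in introns. SYT1 and PTPRC were the 2 of these genes with enough peaks for the gene score described below, with scores of 1.00 (limma adjusted p = 0.015) and 2.21 (limma adjusted p = 0.073). The first p-value is about the smallest which that test gave. Most calls of the test were of genes with the same score in both replicates, so these 2 p-values say little.

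Among IGF2BP2 peaks with the highest IP over input ratios, close to 48.0% lay in 3′ UTRs. The 3′ UTRs held 6.70% ± 0.14 (SD, n = 2) of all IGF2BP2 peaks, 3.82% of those with a centred log2 below -3, 14.3% ± 0.89 (SD, n = 2) of those from 1 to 2, 31.4% ± 1.04 (SD, n = 2) from 2 to 3, and 48.0% ± 0.55 (SD, n = 2) of those above 3. In the bin above 3, 107 of 221 peaks of replicate 1 (48.4%, 95% Wilson interval 41.9 to 55.0%) and 91 of 191 of replicate 2 (47.6%, 40.7 to 54.7%) were annotated to a 3′ UTR. Coding sequence held 19.2% of the peaks below -3, 4.36% of those from 1 to 2 and 1.43% of those above 3, or 4 and 2 peaks in replicates 1 and 2. Introns held 74.5% ± 0.24 (SD, n = 2) of all peaks, 80.8% of those at 0 and 41.3% of those above 3. These intervals cover counting error only, and a high ratio can be reached only by a peak with many IP reads.

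**Figure D1:**
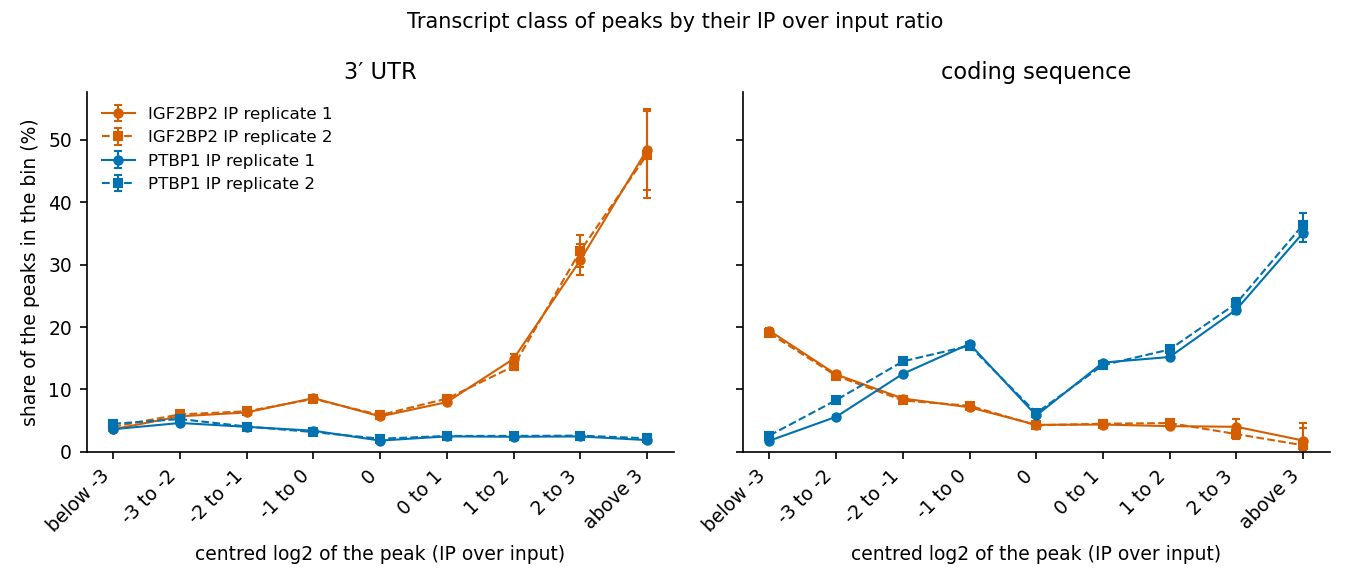
Share of peaks annotated to 3′ UTRs (left) and to coding sequence (right), in percent of the peaks of a library in each bin of centred log2, for both IGF2BP2 (orange) and both PTBP1 (blue) IP libraries; bars are 95% Wilson intervals. The IGF2BP2 share of 3′ UTRs is 3.82% below -3 and 48.0% above 3, while its coding-sequence share is 19.2% and 1.43% in the same bins.

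PTBP1 peaks, set beside them, had the classes the other way round at high ratios. Of PTBP1 peaks above 3, 2.02% lay in 3′ UTRs and 35.7% in coding sequence. That bin held 4040 and 2585 PTBP1 peaks, and PTBP1 peaks were deeper, with medians of 12 and 9 IP reads. Among all peaks, coding sequence held more than 3′ UTRs for both proteins, with 9.21% for IGF2BP2 and 13.4% for PTBP1. With 2 libraries against 2, an exact two-sided permutation test of the 3′ UTR share of all peaks gave p = 0.33, the smallest it can give, with 6.70% for IGF2BP2 and 3.21% for PTBP1 and no overlap of the libraries.

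The median ratio of a peak also differed by transcript class. Peaks in 3′ UTRs had a median centred log2 of -0.58 and -0.69 in replicates 1 and 2, with medians of 6 IP and 3 input reads. Coding-sequence peaks had -2.17 and -2.26, with 5 IP reads and 5 and 6 input reads, and 5′ UTR peaks had -2.04 and -2.17. Intron peaks, the bulk of both lists, had -1.0 and -1.0 from a median of 4 IP reads. Read medians cover only peaks with recovered reads, 87.8% and 88.5% of the lists, and leave out the lowest ratios. The share of a class's peaks that was enriched was 20.9% and 20.9% in 3′ UTRs, 5.35% and 5.79% in coding sequence, 4.69% and 4.13% in 5′ UTRs, 8.68% and 8.81% in introns, and 10.8% and 10.5% in exons of non-coding transcripts. Enriched 3′ UTR peaks had a median of 11 IP reads to 2 input reads in both libraries.

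Within single genes, 3′ UTR peaks had a higher ratio than coding-sequence peaks. The comparison used the 1082 of 17416 genes that held at least 3 peaks in both classes in both replicates. It asked whether the median centred log2 of the 3′ UTR peaks minus that of the coding-sequence peaks differed from 0 over the 2 libraries (limma, Benjamini-Hochberg adjusted p under 0.05). The difference was above 0 in 479 genes, which is 44.3% of those tested, and below 0 in 0 genes (0.0%; 610 and 4 genes at an unadjusted p under 0.05). Its median over genes was 1.31 (quartiles 0.59 and 2.15), with 1.37 and 1.35 in the single replicates, and 825 genes (76.2%) were above 0 in both replicates against 67 below 0 in both. Over the tested genes the 3′ UTR medians were -0.9 and -1.0 in replicates 1 and 2, and the coding-sequence medians -2.33 and -2.41. Both 3′ UTR values lay below the log2 part of the bar for an enriched peak. The 3′ UTR median was at 0 or above in 28.1% and 26.2% of the genes. In the tested genes the 3′ UTR peaks had a median of 8 IP and 5 input reads, and the coding-sequence peaks 7 IP and 9 input reads. Among peaks with recovered reads, the median IP reads of both classes were thus close, and the median input reads were not. No reads were recovered for peaks with a deposited log2 below 0, which are 10.7% and 10.1% of the lists. These read medians thus leave out the peaks with the lowest ratios. Of the called genes, 350 of the 355 that could be tested from peaks on the gene's own strand kept the call. The calls were less stable to the choice of peaks. With peaks of at least 10 IP reads alone, 64 of 164 genes were higher and 0 lower; of the 86 called genes still tested, 59 kept the call and 1 had a difference of the opposite sign. With peaks of 10 to 20 IP reads, where 1 peak per class was enough, 118 of 425 were higher and 7 lower. Of 150 called genes still tested there, 67 kept the call and 4 turned in sign. That setting changed the read depth and the peak minimum together. With at least 1 peak per class 653 of 2831 were higher and 5 lower, and 273 of the 479 kept the call.

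The 10 largest of these differences belonged to genes of several roles. PLK3, a polo-like stress kinase, had 3′ UTR medians of 2.58 and 3.22 and coding-sequence medians of -3.46 and -3.49, a difference of 6.38 ± 0.35 (SE; limma adjusted p = 0.003). In both replicates its classes lay on opposite sides of 0. TEAD1, the transcription factor at the end of the Hippo pathway, had 0.60 and 0.65 in its 3′ UTR from 13 and 12 peaks, and -5.02 and -4.15 in coding sequence (5.21 ± 0.41 SE, limma adjusted p = 0.0055). EIF4B, a translation initiation factor, had 1.01 and 1.27 against -3.63 and -3.91 (4.91 ± 0.40 SE, limma adjusted p = 0.0055).

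MSN and EZR encode moesin and ezrin, which tie actin to the membrane. MSN had 3′ UTR medians of 1.00 and 1.15 against -3.23 and -3.91 in coding sequence (4.64 ± 0.43 SE, limma adjusted p = 0.006). EZR had 0.42 and 0.77 against -3.88 and -4.51. TPM4, a tropomyosin that coats actin filaments, had 0.18 and 0.96 against -4.34 and -4.41. STK10, a kinase that acts on ezrin-type proteins, had 0.56 and 1.42 against -5.25 and -4.17. The remaining genes were PDE1C, a cyclic nucleotide phosphodiesterase (difference 5.59), NONO, a nuclear paraspeckle protein (4.82), and FLCN, the tumour suppressor folliculin (4.57). Coding-sequence medians of all 10 lay at -3.02 or below in both replicates.

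**Figure D2:**
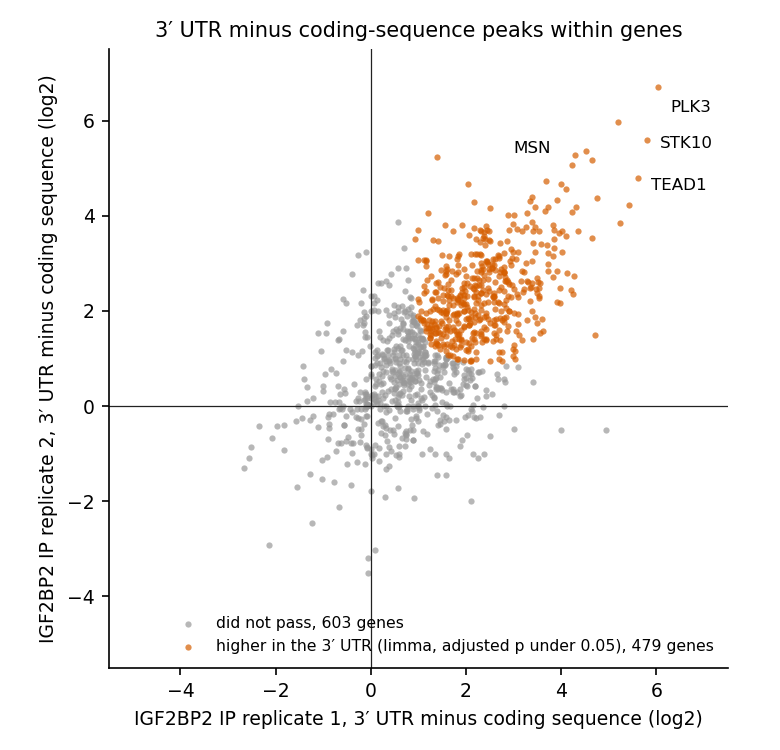
Median centred log2 of 3′ UTR peaks minus that of coding-sequence peaks, 1 point per gene, in IGF2BP2 replicate 1 (x) and replicate 2 (y), for 1082 genes. The 479 genes above 0 by limma at an adjusted p under 0.05 (orange) lie in the upper right quadrant, and 67 genes lie below 0 in both replicates.

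The same contrast against introns left few calls. Over 1901 genes, 3 (0.158%) had a higher 3′ UTR than intron median and 0 (0.0%) a lower one, with 389 and 161 genes at an unadjusted p under 0.05, and the median difference was 0.22. The 3′ UTR medians over these genes were -0.76 and -0.83 and the intron medians -1.08 and -1.16. CTC1, a subunit of the telomere CST complex, had 3′ UTR medians of 1.42 and 0.77 and intron medians of -7.79 and -7.96, from 3 peaks each (8.97 ± 0.17 SE, limma adjusted p = 0.031). HRK and COQ10B followed with 6.70 and 6.22. With means of peaks in place of medians the count was 287, with 212 higher and 75 lower, and with at least 1 or at least 5 peaks per class it was 0.

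The difference between 3′ UTR and coding sequence was larger for IGF2BP2 than for PTBP1. Over 567 genes with at least 3 peaks in both classes in all 4 IP libraries, the median difference was 1.30 and 1.24 in IGF2BP2 and -0.24 and -0.29 in PTBP1. It was above 0 in 84.7% and 82.9% of the genes for IGF2BP2 and in 37.0% and 36.2% for PTBP1. IGF2BP2 had the higher value in 286 genes (50.4%) and the lower one in 4 (0.705%) by limma at an adjusted p under 0.05. VCL, which encodes the focal adhesion protein vinculin, had 4.32 and 4.18 in IGF2BP2 and -0.96 and -1.33 in PTBP1 (5.40 ± 0.45 SE, limma adjusted p = 0.0032). CDK6, a kinase of the G1 phase, had 2.17 and 2.32 against -1.29 and -2.73, and CCND1, its partner cyclin D1, had 1.11 and 2.53 against -2.31 and -2.47. In these 3 genes the proteins lay on opposite sides of 0 in every library. The count fell to 0 when either PTBP1 replicate was left out, which leaves a single PTBP1 library (198 genes at an unadjusted p under 0.05 each time), and was 319 and 333 without IGF2BP2 replicate 1 and 2.

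**Figure D3:**
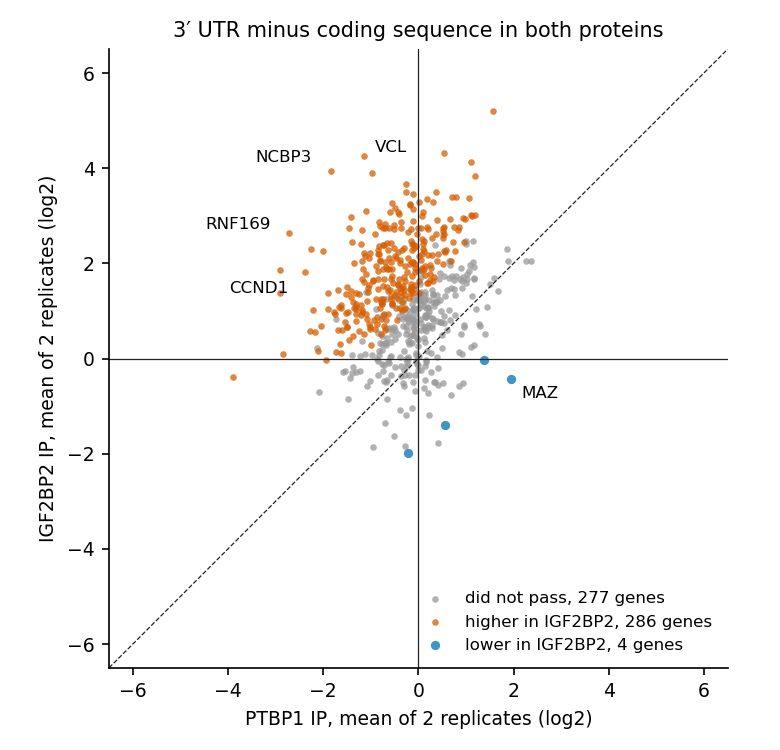
3′ UTR minus coding-sequence difference per gene in PTBP1 (x, mean of 2 replicates) and IGF2BP2 (y, mean of 2 replicates), for 567 genes on the log2 scale; the dashed line marks equal values. The 286 genes higher in IGF2BP2 (orange) lie above the line, and the 4 lower ones (blue), MAZ among them, below it.

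Regions enriched in both IGF2BP2 replicates were 9494 of 159702 regions found in both (5.94%). By class, 18.6% of the regions in 3′ UTRs passed (2532 of 13636), 3.38% in coding sequence (538 of 15915), 1.48% in 5′ UTRs (64 of 4323), 4.87% in introns (5553 of 114066) and 7.56% in non-coding exons (273 of 3609). Passing also depends on read depth, and peaks with recovered reads had a median of 6 IP reads in 3′ UTRs and 4 in introns. The part of read depth in these class shares was not tested. Since introns hold most regions, they also hold 58.5% of the enriched ones, against 26.7% for 3′ UTRs. The 3′ UTR share was 15 and 15.2% of the enriched peaks of single libraries, and 44.9% of the regions at a stricter bar (log2 of 4 and −log10 p of 5). Of enriched 3′ UTR regions with a known gene strand, 88.8% lay on it, and 19.9% of all enriched 3′ UTR regions were mirrored. A PTBP1 peak was found in both PTBP1 replicates at 25.9% of them, and an enriched one at 25 (0.987%). The PTBP1 bar was stricter, with a log2 part of 9.87 and 8.44 IP reads per input read. The 1847 enriched 3′ UTR regions that lay on the known strand of their gene and within its RefSeq span had a median length of 41 nt and lay a median of 1166 nt before the end of the gene (quartiles 535.5 and 2457.5 nt), against 35 nt and 1274 nt for 7813 such regions that were not enriched. Another enriched region lay within 100 nt of 20.3% of all 2532.

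Of 17416 genes with an IGF2BP2 peak, 3836 (22.0%) held an enriched region and 1347 (7.73%) held one in a 3′ UTR. Most genes with an enriched 3′ UTR region had 1 (753 genes), and 78 had at least 5. Of the 1347 genes with an enriched 3′ UTR region, 361 also held one in an intron and 986 did not. Among all 17416 genes, 2506 held an enriched intron region, a smaller share than among these 1347.

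CHST3 held the most enriched 3′ UTR regions. This chondroitin sulfotransferase gene had 12, spread over 4.57 kb, all on its own strand and none mirrored. Its strongest, at chr10:72009384-72009419, had 56 and 62 IP reads to 3 and 4 input reads (centred log2 2.64 and 2.37). FGFRL1, an FGF receptor relative without a kinase domain, had 11 within 0.70 kb. The lower of both replicates ran from 2.85 to 4.50 over the 11 regions, so each of them lay well above the bar. All but 1 of its peaks lay in the 3′ UTR, 27 of 27 in replicate 1 and 34 of 35 in replicate 2. The region at chr4:1025764-1025896 had 4.50 and 4.81, the highest of the IGF2BP2 3′ UTR regions by the lower replicate, although its reads could not be recovered.

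FOSL2, a subunit of AP-1, had 10 enriched 3′ UTR regions over 3.35 kb. The first of its strongest regions, chr2:28416289-28416317, had 67 and 57 IP reads to 1 and 1 input reads, and the next, chr2:28415927-28415957, had 52 and 37 to 1 and 1 and was also enriched in both PTBP1 replicates. MEF2D, a MADS-box factor, also had 10, led by chr1:156465137-156465178 with 82 and 58 IP reads to 3 and 1. IER2, an immediate early gene with one of the 8 strongest 3′ UTR regions, had 91 and 101 IP reads to 2 and 1 at chr19:13154589-13154622. These 4 regions were at 3.19 or above in centred log2 in both replicates, and none of the 4 was mirrored.

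SCD, the desaturase that makes oleic acid, had 10 enriched 3′ UTR regions over 2.78 kb, all on its own strand, with 31 and 19 IP reads to 1 and 1 at the strongest. SPARC, a secreted glycoprotein of the matrix, had 121 and 106 IP reads to 3 and 1 input reads at chr5:151662076-151662092 (3.75 and 5.14). SOGA1 had 9 regions over 5.95 kb. For CDC42EP3, a Cdc42 effector, and ANKRD33B, 5 of 10 regions each lay on the gene's strand, and 10 and 9 were mirrored. In those genes enriched regions lay on both strands, unlike CHST3, FGFRL1, FOSL2, MEF2D and SCD, where none was mirrored.

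**Figure D4:**
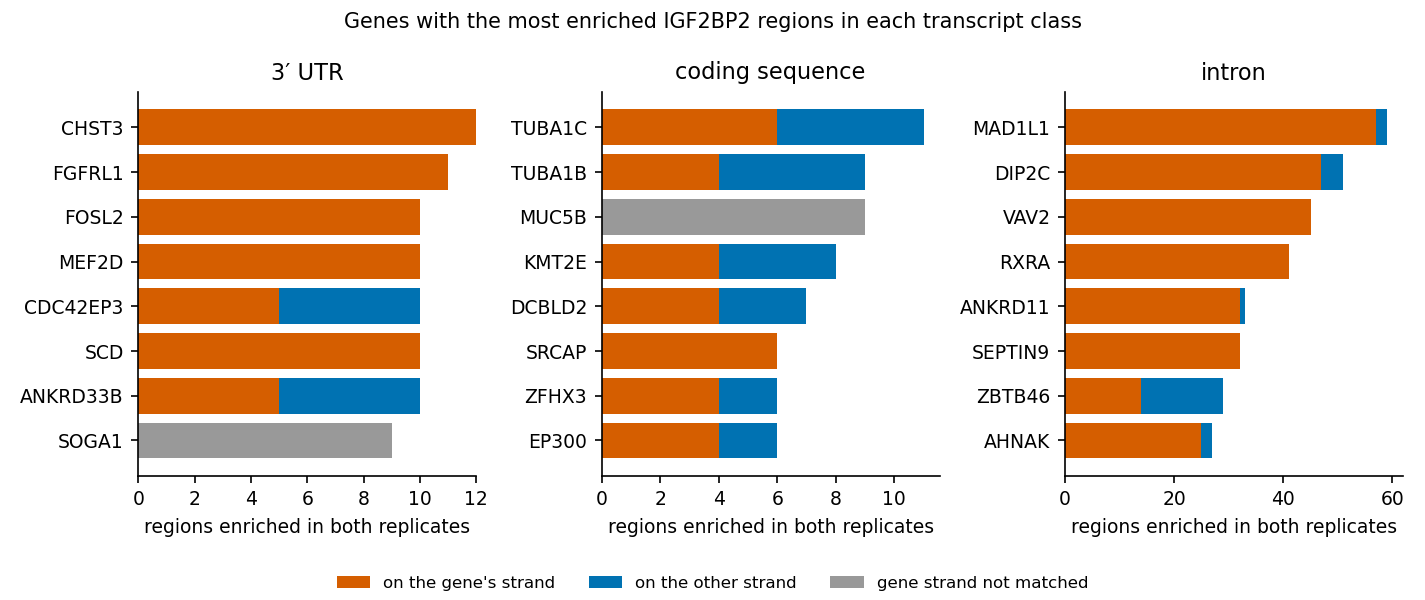
Number of regions enriched in both IGF2BP2 replicates in the 8 genes with the most such regions, for 3′ UTRs, coding sequence and introns; colours give the strand relative to the gene, where known. CHST3 leads the 3′ UTR panel with 12 regions on its own strand, and TUBA1C the coding-sequence panel with 11, of which 6 are on its own strand.

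Coding sequence held few enriched regions, and many of the leading ones were in repeated or near-identical genes. TUBA1C and TUBA1B, alpha-tubulin genes, had 11 and 9, of which 11 and 8 were mirrored and 6 and 4 lay on the gene's strand. Near-identical tubulin copies could share reads, so their counts are uncertain. The same holds for MUC5B, a mucin with long repeats, which had 9, and for HRNR and MTRNR2L8 among the strongest regions. SRCAP, a chromatin remodeller, had 6, all on its own strand and none mirrored, with 25 and 25 IP reads to 2 and 2 at chr16:30724230-30724262 (2.06 and 2.06). The strongest coding region was in IRF2BPL, a nuclear regulator, at chr14:77025653-77025684, with 30 and 33 IP reads to 1 and 1 input reads (3.32 and 3.46). KMT2E, ZFHX3 and EP300, chromatin and transcription regulators, had 8, 6 and 6, with 4 on the gene's strand in each. The 5′ UTRs held 64 enriched regions in 57 genes. Only FBXO31 had 3, and HS3ST4 had the deepest of those named, with 144 and 127 IP reads to 8 and 3 at chr16:25692307-25692331.

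Intron regions gathered in long genes. MAD1L1, a spindle checkpoint gene, had 59 enriched intron regions over 373 kb, DIP2C had 51 over 392 kb, VAV2, a guanine nucleotide exchange factor, had 45 over 188 kb, and RXRA, the retinoid X receptor, had 41 over 96.6 kb. Of these, 57, 47, 45 and 41 lay on the gene's strand. VAV2, MAD1L1 and DIP2C were also among the 10 genes with most regions found in both replicates, enriched or not. VAV2 had 549, MAD1L1 548, ZMIZ1 472, DIP2C 468 and SEPTIN9 463, with 89.3% to 99.0% in introns over the 10 leading genes. Enriched regions were 8.2%, 10.8%, 5.08%, 11.1% and 6.91% of these. The median lower-replicate value of the enriched intron regions was 0.22 in MAD1L1 and VAV2, 0.42 in DIP2C and 0 in RXRA. These values lay just above the log2 part of the bar.

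AHNAK and ZBTB46 differed from that pattern. AHNAK, a giant scaffold protein, had 27 enriched regions annotated as intron over 76.6 kb, and 14 of them were also enriched in both PTBP1 replicates. Its strongest, chr11:62516313-62516363, had 148 and 130 IP reads to 2 and 1 input reads and no PTBP1 peak in both replicates (4.62 and 5.44). AFAP1, an actin filament-associated protein, had 87 and 64 to 1 and 1 at chr4:7864025-7864141. ZBTB46, a zinc finger factor, had 29 within 1.03 kb, all mirrored and 14 on the gene's strand, with 168 and 150 intron peaks in all.

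Non-coding exons and stable RNAs ranged widely. MALAT1, a nuclear long non-coding RNA, had 6 enriched regions, 5 on its own strand, while the strongest was mirrored and lay on the opposite strand. The median MALAT1 peak was at -0.68 and -0.85, while that of NEAT1, the scaffold of paraspeckles, was at -2.63 and -2.69. NORAD, which binds Pumilio proteins and was chosen after its values were seen, had 3, with 92 and 79 IP reads to 5 and 5 at chr20:36047432-36047515 (2.62 and 2.40). BCL2L1 had 5 regions annotated as non-coding exon, with 53 and 49 IP reads to 2 and 2 at the strongest. Structured RNAs of RNA polymerase III lay far lower: RN7SL2 and RN7SL3, near-identical copies of the signal recognition particle RNA, had medians of -6.96 and -7.04, and of -6.88 and -6.43. RN7SK, chosen after its values were seen like RMRP, had -5.19 and -5.25, and RMRP -3.86 and -4.01. SNORD3A, the U3 snoRNA, lay above 0, with 1.10 and 0.99 from 6 and 5 peaks, of which 6 and 4 were enriched.

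A gene score, the median centred log2 of a gene's peaks minus the library median over genes, was tested in 10134 genes with at least 5 peaks. It was above the library's typical gene in 869 (8.58%) and below it in 139 (1.37%) by limma at an adjusted p under 0.05. Of the 1008 calls, 840 had the same score in both replicates within 0.001, so the count says little and is not used for other statements. FGFRL1 stood highest, with medians of 3.62 and 3.38 (score 4.50 ± 0.09 SE, limma adjusted p = 0.019). The lowest were TPRG1 (-6.62), RN7SL2 (-6.0), RN7SL3 (-5.65) and RPS29 (-5.37).

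Gene groups were described by lists chosen with earlier results of these data known. In them the count of genes with an enriched 3′ UTR region is read against 7.73% of all genes, and that of genes with any enriched region against 22.0%. All genes are those with any IGF2BP2 peak, including non-coding genes without a 3′ UTR and genes with few peaks. Most lists hold mostly coding genes, so the 3′ UTR shares are not compared like for like. The count of genes with a higher 3′ UTR than coding-sequence ratio is read against the 44.3% called among all 1082 tested, whose median difference was 1.31, and few members of a list could be tested. No test was run on the lists. Known targets of the IGF2BP family had an enriched 3′ UTR region in 9 of 25 genes with a peak (36.0%), and 4 of the 4 tested had a higher 3′ UTR than coding-sequence ratio by limma at an adjusted p under 0.05, against 44.3% of all tested genes. CCND1 had 9 such regions, CDK6 had 7, and HMGA1, an architectural chromatin protein, had 4. CDK6 had 55 and 64 IP reads to 4 and 2 at chr7:92607732-92607809. HMGA1 had 78 and 74 to 12 and 12 at chr6:34244983-34245076, a lower ratio (1.12 and 1.04) from a deeper input. IGF2, which gave the family its name, had no peak, and MYC had 12 and 13 peaks and 0 enriched regions.

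Targets of the let-7 microRNA overlap that list, as both hold CCND1, CDK6 and HMGA1 among others. They had an enriched 3′ UTR region in 13 of 34 genes (38.2%), and 6 of 7 tested genes had a higher 3′ UTR ratio (median difference 2.04, against 1.31 over all genes). PLAGL2, a zinc finger factor, had 6, with 18 and 16 IP reads to 1 and 1 at chr20:32196012-32196066. IGF2BP1, a family member and itself on the list, had 4, led by 9 and 10 IP reads to 1 and 1 at chr17:49051746-49051775. IGF2BP2 and IGF2BP3 had 0 in their 3′ UTRs and 2 intron regions each, with 6 to 8 IP reads to 1 input read at the strongest.

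Cyclins, CDKs and their inhibitors had an enriched 3′ UTR region in 9 of 30 genes (30%), with 32 such regions. CDKN1A, the inhibitor p21, had 7, all on its own strand, with 70 and 72 IP reads to 3 and 2 at chr6:36687207-36687237 (2.96 and 3.58). CDKN1C, the inhibitor p57, had 2, with 24 and 31 to 1 and 1 at chr11:2883402-2883443. CCNT1, a cyclin of the elongation kinase P-TEFb, had 3. The mitotic cyclins CCNB1 and CCNB2 and the kinases CDK1, CDK2 and CDK4, named after their values were seen, had no enriched region.

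The list of AP-1 and immediate early genes, which also holds the MADS-box factor MEF2D, had one in 12 of 31 (38.7%). Besides FOSL2, MEF2D and IER2, DUSP4, a MAP kinase phosphatase, had 6 enriched 3′ UTR regions, and FOSL1, another AP-1 subunit, had 4. FOSL1 had 87 and 69 IP reads to 10 and 6 at chr11:65892051-65892095 (1.54 and 1.94). In 4 of 10 tested genes of this list, close to the 44.3% of all tested genes, the 3′ UTR ratio was higher than the coding-sequence ratio, MEF2D among them (1.34 ± 0.41 SE, limma adjusted p = 0.044). FOSL2 did not pass that test, with a difference of 1.22 ± 0.41 (SE, limma adjusted p = 0.057).

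Insulin and IGF signalling genes had an enriched 3′ UTR region in 11 of 30 (36.7%), and 6 of 10 tested had a higher 3′ UTR ratio, against 44.3% of all tested genes. PDPK1, the kinase that activates AKT, had 7, and GRB2, an adaptor of receptor kinases, had 3. PDPK1 had 9 and 17 IP reads to 1 and 1 at chr16:2600702-2600737, and GRB2 had 18 and 18 to 1 and 2 at chr17:75319893-75319928. The receptor tyrosine kinase list had one in 6 of 29 (20.7%), FGFRL1 included, and 6 of 7 tested had a higher 3′ UTR ratio, against the same 44.3%. EPHA2, an ephrin receptor, had 3, and AXL had 2. EGFR, amplified or mutated in many gliomas, had 7 enriched regions, all in introns, and a 3′ UTR minus coding-sequence difference of 2.64 ± 0.46 (SE, limma adjusted p = 0.011).

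Cytoskeleton genes had the largest share of the lists with more than 3 genes, with an enriched 3′ UTR region in 17 of 38 (44.7%) and any enriched region in 30 (78.9%). In 10 of 13 tested the 3′ UTR ratio was higher, against 44.3% of all tested genes, with a median difference of 2.65 against 1.31. CFL1, which encodes the actin-severing cofilin, had 6, MSN had 5, and MAP1B, a microtubule-associated protein, and TPM4 had 4 each. MSN had 24 and 24 IP reads to 1 and 1 at chrX:65740215-65740260 (3.00 and 3.00). CFL1 had 20 and 26 to 1 and 1 at its strongest region, which was mirrored and lay on the strand opposite to the gene. Of the 8 enriched regions of CFL1, 4 lay on its own strand. MAP1B also had 4 in coding sequence. VIM, the intermediate filament vimentin, and the filamin gene FLNA, named after their values were seen, had none.

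Extracellular matrix genes had one in 10 of 35 (28.6%), and 7 of 11 tested had a higher 3′ UTR ratio, against 44.3% of all tested genes. TIMP2, a metalloproteinase inhibitor, had 5, of which the strongest was mirrored. Integrins and laminins had one in 2 of 23 (8.70%), close to the 7.73% of all genes. These were ITGA3 and LAMC1.

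Factors of mRNA decay and stability had an enriched 3′ UTR region in 10 of 41 (24.4%), and 2 of 9 tested genes had a higher 3′ UTR ratio, against 44.3% of all tested genes, with a median difference of 0.55 against 1.31. ZFP36L1, which binds AU-rich elements, had 6, with 2.43 and 2.56 at chr14:68788702-68788728, and TOB2, a deadenylation factor, had 5. ZFP36L1 was 1 of the 2 that passed (1.88 ± 0.44 SE, limma adjusted p = 0.02). Sterol and fatty acid synthesis genes had one in 7 of 31 (22.6%), and SCD held 10 of their 23 regions. SCD did not pass the test of 3′ UTR against coding sequence (0.08 ± 0.43 SE, limma adjusted p = 0.88), with close medians in both classes. Glycolytic genes had one in 5 of 21 (23.8%), led by the hexokinase gene HK1 with 3. The glucose transporter gene SLC2A1 had 2, one with 66 and 60 IP reads to 2 and 2 at chr1:42926570-42926607 (3.46 and 3.32).

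In 3 other lists the share of genes with an enriched 3′ UTR region lay below that of all genes. Cytosolic ribosomal protein genes had an enriched 3′ UTR region in 2 of 83 (2.41%) and any enriched region in 17 (20.5%), the latter near the 22.0% of all genes. Nuclear genes of oxidative phosphorylation had 3 of 70 (4.29%) and 10 (14.3%), and replication-dependent histone genes 1 of 56 (1.79%) and 7 (12.5%). Long non-coding RNAs and snoRNA hosts, which are left out of the 3′ UTR counts because all but 2 of their members, RACK1 and TAF1D, are non-coding and have no 3′ UTR, held any enriched region in 10 of 24 (41.7%) and 8 of 20 (40.0%), above the 22.0% of all genes. MIR4435-2HG and CYTOR led with 19 and 11 intron regions, of which 14 and 8 lay on the gene's strand. The strongest region of MIR4435-2HG was mirrored and lay on the opposite strand.

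**Figure D5:**
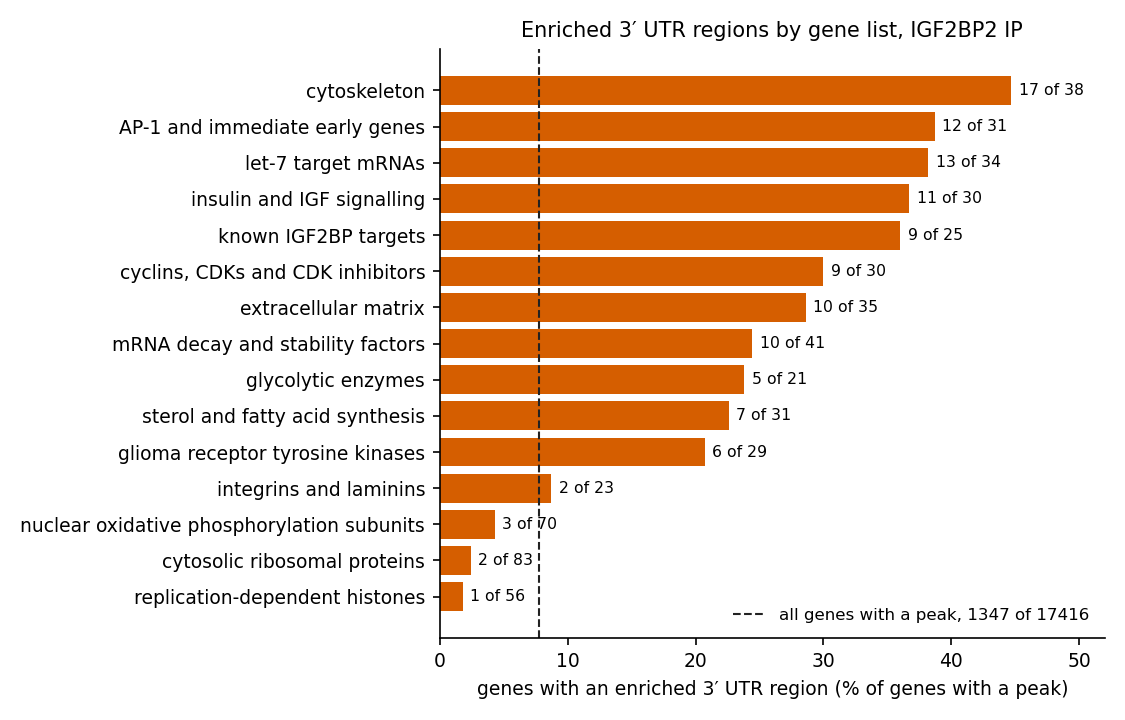
Share of the genes of each list of mostly coding genes, in percent of those with an IGF2BP2 peak, that hold a 3′ UTR region enriched in both replicates; numbers give genes with such a region of genes with a peak, and the dashed line marks all genes (1347 of 17416, 7.73%). Cytoskeleton genes have 44.7%, and ribosomal protein genes 2.41%. All genes include non-coding genes, which have no 3′ UTR, and genes with few peaks.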

How the data were processed

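Peak lists of the 2 IGF2BP2 IP libraries, with those of PTBP1 for comparison, were used. Input libraries were not analysed here on their own. The submitters' processing notes name HISAT2 and hg38, without versions; which program called the peaks, with which annotation and filters, is not given in the sources used here. Every list belongs to 1 library and is not pooled. The authors deposited a log2 value per peak, under a header that reads as a count, a −log10 p that stops at 400, and an overlap length, per the file headers, of which the last is another measurement, not used here. The log2 values were those of whole IP to input reads plus a constant per chromosome; no source names the divisor, which the values show to be a second set of whole reads, taken as the input.

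The commonest value per chromosome and library was subtracted (24 of 24 chromosomes of both IGF2BP2 libraries matched 3 to 1 reads). Reads were recovered from the log2 and the −log10 p for 99.6% of eligible peaks in both libraries, matching the −log10 p within 1%. Peaks with a negative deposited log2 or a −log10 p at its limit were not eligible. Repeated lines (3 per library) were removed. Peaks overlapping by at least 1 nt on a strand were joined into regions. Tests used limma 3.58.1 (R 4.3.3; trend, Benjamini-Hochberg at 0.05) on median centred log2 per gene. Read recovery, joining and the limma fits were tested on simulated data. Alternatives changed the peak minimum, the read depth, the summary, the strand, mirrored peaks, chromosomes and replicates.

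Genes are named by rule: per class the 8 with most enriched regions, the 8 strongest regions in 3′ UTR, coding sequence and intron with at least 10 IP reads, the 10 largest differences per test and direction, 2 to 4 per list, the IGF2BP family, and the 10 genes with most regions; others are named as chosen after their values were seen. Members and lists were chosen with earlier results of these data known. Results on a few genes are not reported here.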

Additional observations from a re-analysis of the deposited data

Results flagged for a closer look

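The difference between 3′ UTR and coding sequence differed between IGF2BP2 and PTBP1 in 290 of 567 genes by a test of the difference itself (limma, adjusted p under 0.05), and in 4 of these IGF2BP2 had the lower value. MAZ, a zinc finger factor, had 3′ UTR minus coding-sequence values of -1.41 and 0.56 in IGF2BP2 and of 1.94 and 1.95 in PTBP1, a difference of -2.37 ± 0.69 (SE, limma adjusted p = 0.03). Its IGF2BP2 replicates lay on opposite sides of 0. KIAA1614 had -0.66 and -2.11 against 0.63 and 0.46, a difference of -1.93. POM121, a nuclear pore gene, had -2.67 and -1.29 against -0.29 and -0.14, a difference of -1.76. Its paralogue POM121C was called the other way, with means of 0.73 in IGF2BP2 and -0.86 in PTBP1 (difference 1.59). Whether reads are shared between these paralogues was not tested. SPNS2, a sphingosine-1-phosphate transporter, had -0.26 and 0.18 against 1.15 and 1.58, a difference of -1.41. With a replicate block POM121 and SPNS2 did not pass (limma adjusted p = 0.052 and 0.059). None of the 4 lower genes held an enriched IGF2BP2 region in its 3′ UTR. With peaks on the gene's own strand alone 0 of 380 genes were lower and 210 were higher.

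Peaks on the mitochondrial chromosome are outside the comparisons above. There were 32 in replicate 1 and 32 in replicate 2, with a median deposited log2 of 0.83 and 1.19 and a range of -3.91 to 3.59 and -4.26 to 3.70.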

How the results depend on the processing

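Limits: peaks are shallow, so a peak of 3 IP reads to 1 input read sets the scale, and tests rest on 2 libraries whose spread may be technical. For 3′ UTR against coding sequence, 479 calls became 294 with at least 5 peaks per class, 125 with peaks of 10 to 20 IP reads (118 higher, 7 lower) and 64 with at least 10 IP reads, out of 472, 425 and 164 genes tested; of the called genes still tested, 239 of 239, 67 of 150 and 59 of 86 kept the call, and 0, 4 and 1 turned in sign. With at least 1 peak per class there were 658 calls of 2831, and 273 of the 479 kept theirs. The setting of 10 to 20 IP reads also asked for only 1 peak per class, in every comparison. The median difference was 1.37 and 1.35 in single replicates. For 3′ UTR against introns, 3 calls became 0 with at least 1 peak, at least 5 peaks, 10 to 20 IP reads or own-strand peaks, 8 with at least 10 IP reads and 287 with means, and the median was 0.26 and 0.21 in single replicates. For IGF2BP2 against PTBP1, 290 calls became 683 with at least 1 peak, 140 with at least 5, 13 with 10 to 20 IP reads (added after seeing the data, like the own-strand and single-class settings), 33 with at least 10, and 0 to 333 when 1 replicate was left out, the 0 without either PTBP1 replicate. With a replicate block the count was 234 (232 higher, 2 lower), and POM121 and SPNS2 lost their calls. Deviations of same-numbered libraries correlated at 0.0043, which cannot show whether those libraries were prepared together. The block moved no total count of calls by over 1.5 times, but left 2 of the 4 lower genes. The 1008 gene score calls became 440 and 637 with 3′ UTR or coding-sequence peaks only, 2744 with at least 10 peaks per gene, 66 on the deposited log2, 3227 with means and 303 with at least 10 IP reads. The score of DDX6 was 1.60 and turned to -1.08 with intron peaks only; the cause was not tested. Shares of 3′ UTR, coding sequence and intron were 7.80%, 10.5% and 72.1% of covered nucleotides and 14.7%, 12.2% and 62.3% of peaks with at least 10 IP reads, and ran from 6.61 to 6.80%, 9.18 to 9.25% and 74.3 to 74.6% over single replicates. Enriched regions numbered 2112 at a log2 of 4 and −log10 p of 5, and single libraries held 31905 to 33318 enriched peaks. Their 3′ UTR share of 26.7% was 44.9% at that stricter bar, 25.5% without mirrored peaks, 25% with deposited values, 28.8% for own-strand peaks and 15 to 15.2% in single libraries.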
